A study of Mus musculus with 9 samples.

Results

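Caveolae are small flask-shaped pits of the plasma membrane that are especially dense in adipocytes and endothelial cells. Caveolins are inserted into the membrane and oligomerise there, cavins form a coat around the bulb, and the ATPase EHD2 sits at the neck and holds the pit at the cell surface. In fat cells caveolae are known as a reserve of membrane that flattens under stretch and as a site of insulin receptor signalling and fatty acid uptake, and loss of caveolin 1 or cavin 1 causes lipodystrophy in mice and people. The genes described here are the caveolins Cav1 and Cav2, the coat proteins Cavin1 and Cavin2, and Ehd2, chosen by name. All 5 were among the 3958 genes of the count table, and all 5 passed the filter on low counts.

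RNA sequencing gave 9 libraries from the fat of C57BL/6J mice, an inbred strain prone to diet-induced obesity; all were male and all were taken at day 21. The 3 libraries of the group EA (numbers 5, 7 and 8) carry the treatment label EA, and the series design names electroacupuncture, current passed through acupuncture needles, on top of a high-fat diet. The other groups, CPX (numbers 4, 6 and 8) and MPX (numbers 2, 5 and 7), have no treatment label, and the design names a normal-diet and a high-fat-diet group. The labels do not say which prefix had which diet, so no difference below has a diet direction, and EA and CPX or EA and MPX may differ in diet as well as in treatment. Neither the fat depot nor whether each library came from its own mouse is stated, so a p-value here reflects only how far these libraries scatter, which may be technical.

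The count table holds the most abundant genes only, and its column sums, 12115183 to 14208853, are not library depths. Levels are listed counts scaled to library size with TMM factors (CPM), or CPM per kilobase of gene length (CPM per kb) where genes are compared with each other. All 18 adipocyte markers chosen were listed and none was at 0 in any library, whereas 0 of 5 retina genes were listed, although retinas are the tissue named in the labels' extraction protocol. Libraries CPX 6 and EA 8 stood apart. CPX 4 and CPX 8 were not closely alike either, with a Spearman correlation of log2 CPM of 0.72. For EA 8 it was 0.79 with EA 5 and 0.82 with EA 7. The TMM factor of CPX 4 was 0.753, the lowest of all libraries. The 7 listed B cell genes summed to 3177 CPM in CPX 6, where CPX 4 had 10.4 CPM and CPX 8 had 24.9 CPM. The adipocyte markers summed to 11734 CPM in CPX 6, where CPX 4 had 131636 CPM and CPX 8 had 67405 CPM. In EA 8 the B cell genes summed to 1687 CPM and 7 macrophage genes to 5396 CPM, each the highest of its group. The group differences of the 5 caveola genes are therefore also given without CPX 6 or without EA 8. Differences of the other named genes and of the marker lists are from all 9 libraries.

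In mm10 the caveolin genes are neighbours on the plus strand of chromosome 6, Cav2 from 17281185 to 17289115 and Cav1 from 17306335 to 17341452, with 17219 bases between them. Cavin1 lies on chromosome 11 (100956733 to 100970887, minus strand), Cavin2 on chromosome 1 (51289126 to 51302960, plus strand) and Ehd2 on chromosome 7 (15946958 to 15967567, minus strand). All 5 are annotated as protein coding. Promoters of 5 of the 5 genes were found in RefSeq's table (GRCm38.p6), and for Cav1, Cav2 and Cavin2 the RefSeq start is the start in the count table. The 250 bases before the start are shown for these 3 genes, because Cav1 and Cav2, which had the most alike profiles of the set, are neighbours, and Cavin2 is the coat gene for which such a window was at hand. Capitals mark matches, on either strand, to 6 short motifs: the GC box (GGGCGG), the CCAAT box, the TATA box (spelled TATAAA), the C/EBP motif (spelled TTGCNNAA), a nuclear receptor motif (spelled AGGTCA) and the ETS motif (spelled GGAAG). None of the printed matches overlap. The windows are chr6:17306085-17306334 (plus strand) for Cav1, chr6:17280935-17281184 (plus strand) for Cav2 and chr1:51288876-51289125 (plus strand) for Cavin2.
Cav1: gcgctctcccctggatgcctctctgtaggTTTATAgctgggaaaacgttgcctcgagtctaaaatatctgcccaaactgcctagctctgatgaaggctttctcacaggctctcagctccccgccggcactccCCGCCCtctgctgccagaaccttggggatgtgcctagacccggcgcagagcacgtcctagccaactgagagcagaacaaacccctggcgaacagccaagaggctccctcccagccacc
Cav2: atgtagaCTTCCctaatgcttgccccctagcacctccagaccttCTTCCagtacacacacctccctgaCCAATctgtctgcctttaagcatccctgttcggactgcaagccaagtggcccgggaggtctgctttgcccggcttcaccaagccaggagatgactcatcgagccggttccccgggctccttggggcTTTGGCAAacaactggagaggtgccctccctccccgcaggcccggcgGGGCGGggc
Cavin2: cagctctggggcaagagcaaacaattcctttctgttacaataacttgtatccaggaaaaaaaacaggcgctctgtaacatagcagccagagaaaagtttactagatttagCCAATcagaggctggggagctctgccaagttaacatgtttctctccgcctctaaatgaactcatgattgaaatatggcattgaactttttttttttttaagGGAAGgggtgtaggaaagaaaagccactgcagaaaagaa
The neighbours Cav1 and Cav2 shared a GC box (1 match each), which 32.7% of the 32851 promoter windows of the same length hold. Cav1 had the GC box on the minus strand at position -118 and a TATAAA match on the minus strand at position -221, counted from the start site. Cav2 had the GC box at position -9, and it also held CCAAT (33.8% of all windows), 2 ETS matches (64.1%) and 1 C/EBP match (9.56%). Cavin2 held CCAAT and 1 ETS match but no GC box, and its window was 40.4% G and C, against 59.6% in Cav1, 62% in Cav2, 67.6% in Cavin1 and a median of 52.4% over all windows. Cavin1 and Ehd2, whose windows are not printed, each held 1 GC box and 1 CCAAT match, so CCAAT was present in 4 of the 5 windows. AGGTCA (14% of all windows) was in none of the 5. These matches describe letters in a window and say nothing of binding.

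Caveola transcripts were abundant. Cav1 was the 32nd most counted of the 3958 genes, Cavin1 the 57th, Ehd2 the 85th, Cavin2 the 161st and Cav2 the 180th. The lowest count of any of them in any library was 1632 (Cav2 in CPX 6), where counting error alone is 2.48%, far below the spread between libraries described below. Together the 5 genes took from 0.122% (CPX 6) to 1.08% (MPX 5) of the listed counts.

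Per length, Cav1, the main structural caveolin, and Cavin1, the coat protein without which caveolae do not form, stood highest in every group mean. In MPX the levels were 969.3 ± 183.9 CPM per kb for Cav1 and 744.5 ± 121.3 CPM per kb for Cavin1 (SD, n = 3), with overlapping ranges. Ehd2 (337.4 ± 17.0 CPM per kb), Cavin2 (303.7 ± 16.4 CPM per kb) and Cav2 (271.8 ± 72.3 CPM per kb) followed, and neighbours in that order overlapped. In EA the order was Cav1 (465.8 ± 217.9 CPM per kb), Cavin1 (406.9 ± 166.7), Cavin2 (216.9 ± 105.9), Ehd2 (189.1 ± 82.2) and Cav2 (139 ± 54.5 CPM per kb). In CPX it was Cav1 (685.3 ± 505.7 CPM per kb), Cavin1 (295.5 ± 196.6), Cav2 (214.1 ± 165.1), Cavin2 (203.4 ± 137.2) and Ehd2 (187.3 ± 127.5 CPM per kb). The order of the lower 3 genes therefore differed between groups, with SDs larger than the gaps in EA and CPX.

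All 5 genes had their highest group mean in MPX. Cav1 was at 2616 CPM in MPX 2, 3801 CPM in MPX 5 and 3597 CPM in MPX 7. In EA it was at 1928 CPM in EA 5, 2139 CPM in EA 7 and 746.2 CPM in EA 8, and at 3741 CPM in CPX 4, 403.4 CPM in CPX 6 and 2936 CPM in CPX 8. All 3 EA libraries lay below all 3 MPX libraries, while CPX 4 and CPX 8 lay within the range of MPX and CPX 6 was lowest of all.

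Cav2, which is thought to need Cav1 to reach the cell surface, followed the same order at a lower level. Its values were 642.5, 1115 and 962.4 CPM in MPX 2, 5 and 7, and 537.8, 596.5 and 256.2 CPM in EA 5, 7 and 8. In CPX 4, 6 and 8 it stood at 1216, 125.3 and 801.2 CPM. EA and MPX did not overlap. CPX held the lowest value and, with the low TMM factor of CPX 4 (0.753), also the highest. In unscaled counts MPX 5 (14434) lay above CPX 4 (12840), although its column sum was smaller (12888448 against 14027981).

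Cavin1 differed from the caveolins in where CPX stood. It was at 2304, 3151 and 2557 CPM in MPX 2, 5 and 7, at 1714, 1889 and 776.5 CPM in EA 5, 7 and 8, and at 1460, 245.8 and 1475 CPM in CPX 4, 6 and 8. MPX lay above both other groups with no overlap, and CPX 4 and CPX 8 lay below EA 5 and EA 7.

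Cavin2, a phosphatidylserine-binding coat protein that can shape the membrane, was the flattest of the genes outside the low libraries. It ran from 876.3 to 976.3 CPM in MPX (876.3, 931.3 and 976.3 CPM in MPX 2, 5 and 7) and stood at 806.5, 889.2 and 291.8 CPM in EA 5, 7 and 8. CPX 4, 6 and 8 held 894.4, 138.8 and 830.7 CPM. Its EA and MPX ranges overlapped, since EA 7 lay above MPX 2.

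Ehd2, the neck ATPase, was at 1627, 1780 and 1774 CPM in MPX 2, 5 and 7 and at 1222, 1200 and 482.7 CPM in EA 5, 7 and 8. In CPX 4, 6 and 8 it was at 1187, 222.6 and 1467 CPM. MPX lay above both other groups with no overlap, and EA 5 and EA 7 were close to CPX 4.

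**Figure D1:**
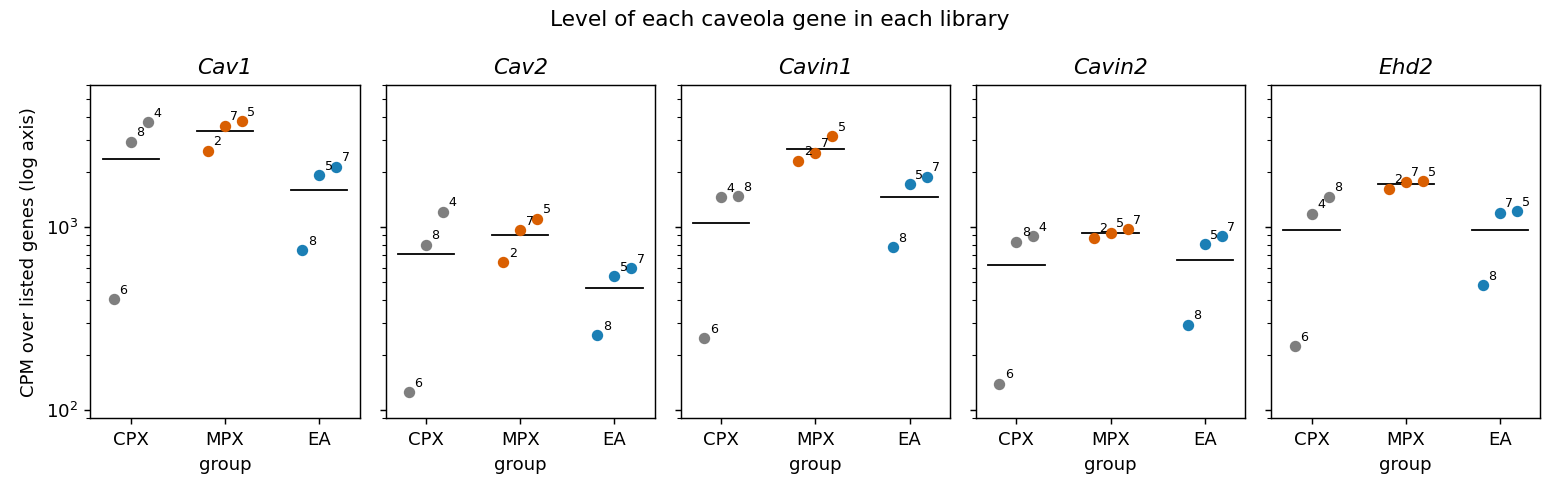
Level of each gene in each library, as CPM over the listed genes on a log axis, by group (CPX, MPX, EA; 3 libraries each, numbered by library); bars are group means. MPX libraries lie above EA libraries for Cav1, Cav2, Cavin1 and Ehd2, and CPX 6 is the lowest library for all 5 genes.

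The comparison of EA with MPX asks how the tissue after electroacupuncture differs from one of the groups without it. All 5 caveola genes had lower means in EA, where 48.6% of all listed genes had negative differences. The mean of Cav1 was 2.08-fold lower (EA 1604 ± 750.5 CPM, MPX 3338 ± 633.4 CPM; SD, n = 3 each), or -1.06 as a log2 difference (SE 0.75). The log2 differences of the others were -0.97 for Cav2 (SE 0.72, 1.96-fold lower), -0.87 for Cavin1 (SE 0.65), -0.83 for Ehd2 (SE 0.65) and -0.49 for Cavin2 (SE 0.67). The median of the 5 was -0.87, beside 0.01 over all listed genes. In 4 of the 5 genes the ranges of EA and MPX did not overlap, beside 19% of all listed genes with EA wholly below MPX.

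None of these differences was past the threshold of 0.05. The adjusted edgeR p was above it for 5 of 5 members and for all listed genes (0% called). At an unadjusted edgeR p under 0.05 there were 0 of 5 members, beside 5.1% of all listed genes. The edgeR adjusted p was 0.775 for Cav1, Cav2, Cavin1 and Ehd2 and 0.82 for Cavin2. DESeq2 called 0 of the 5, beside 1.24% of the genes for which it gave an adjusted p, and limma voom 0 of the 5. With only EA and MPX fitted, Cav1, Cav2 and Cavin1 had an unadjusted edgeR p under 0.05 (0.038, 0.0325 and 0.0457), where 15.9% of all listed genes were lower in EA at that level, and the smallest edgeR adjusted p was 0.126. Without CPX 6, 4 of the 5 did, where 9.32% of all listed genes were lower in EA at that level and 786 of 3958 reached it in either direction. The edgeR adjusted p of the 5 was then at least 0.216. Library EA 8 carried much of the Cavin2 difference, which was -0.13 without it, and Cavin1 was at -0.57 and Ehd2 at -0.51 without it; none passed the test without it either.

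Cell type markers also differed in level between EA and MPX. The 18 adipocyte markers summed to 45164 to 69351 CPM in EA and 70131 to 77921 CPM in MPX, and 15 of the 18 had negative differences. The sums weigh the most abundant markers most. As a mean of log2 CPM, each marker centred on its mean over the 9 libraries, the groups overlapped (0.29 in EA 5, 0.26 in MPX 5). Of the 16 listed endothelial markers 15 had negative differences, with sums of 2329 to 3368 CPM in EA and 3209 to 4523 CPM in MPX. The 7 B cell genes summed to 551.3 to 1687 CPM in EA against 4.31 to 18.3 CPM in MPX. Of the macrophage genes 7 of 7 had positive differences, but 0 of the 7 had ranges that did not overlap. Their sums were 2279 to 5396 CPM in EA, highest in EA 8, and 1084 to 3024 CPM in MPX. None of these markers was at 0 in any library. Fewer cells of a type and less RNA per cell cannot be told apart in bulk tissue, and the part of these markers in the caveola differences was not tested.

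Set against the mean of the adipocyte markers within each library, on the centred log2 scale, Cav1 stood at -0.34, -0.01 and -1.01 in EA 5, 7 and 8 and at 0.08, 0.67 and 0.35 in MPX 2, 5 and 7. On this scale EA lay below MPX with no overlap for 3 of the 5 genes (Cav1, Cavin1 and Ehd2), beside 4.09% of all listed genes, with differences of means of -0.82, -0.60 and -0.59. Without EA 8 these were -0.54, -0.40 and -0.35. The ranges still did not overlap, for Cavin1 only narrowly (0.29 in EA 7, 0.34 in MPX 7). With 2 EA libraries against 3 ranges separate more easily, and the share over all genes was not counted in this setting. Against the endothelial mean 3 of 5 did not overlap (Cav1, Cav2 and Cavin1), beside 3.69% of all listed genes, with differences of -0.80, -0.64 and -0.58, which without EA 8 were -0.45, -0.39 and -0.31. For Cavin2 the ranges overlapped on both scales, and without EA 8 its differences were 0.03 and 0.12.

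MPX and CPX carry no treatment label, and the groups without electroacupuncture that the series design names differ in diet. All 5 genes had higher means in MPX, where 40.7% of all listed genes had positive differences. Cavin1 stood furthest apart, with a 2.52-fold higher mean (MPX 2671 ± 435 CPM, CPX 1060 ± 705.2 CPM; SD, n = 3 each) and a log2 difference of 1.33 (SE 0.66). Ehd2 averaged 1727 ± 87.0 CPM against 958.9 ± 652.8 CPM (log2 difference 0.85, SE 0.65). Cavin2 (0.58, SE 0.67), Cav1 (0.50, SE 0.74) and Cav2 (0.34, SE 0.71) had smaller differences and overlapping ranges. The median of the 5 was 0.58, beside -0.11 over all listed genes. Cavin1 and Ehd2, 2 of the 5, did not overlap, beside 8.46% of all listed genes with MPX wholly above CPX.

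By edgeR's test 0 of 5 passed (adjusted p = 0.404 for Cavin1 and 0.53 to 0.822 for the others), beside 0% of all listed genes, and 0 of 5 had an unadjusted p under 0.05, beside 13.2% of all genes. DESeq2 called 0 of the 5, beside 5.1% of the genes with an adjusted p, although its unadjusted p for Cavin1 was 0.0361 (DESeq2 adjusted p = 0.193), and limma voom called 0 of the 5. These differences depended on which CPX library was left out. Without CPX 6 Cavin1 was at 0.86, Ehd2 at 0.38, Cavin2 at 0.10, Cav1 at -0.0020 and Cav2 at -0.16 on the log2 scale, so the caveolins no longer stood higher in MPX. The edgeR adjusted p of Cavin1 was then 0.361. Without CPX 4 the differences were larger, with Cavin1 at 1.66, Cav1 at 1.03 and Cav2 at 1.00. With all 9 libraries, the endothelial markers had positive differences in 16 of 16 and the adipocyte markers in 13 of 18. The 7 B cell genes had negative differences in 7 of 7, all with overlapping ranges. Their sums were 3177 CPM in CPX 6 but 10.4 CPM in CPX 4 and 24.9 CPM in CPX 8, against 4.31 to 18.3 CPM in MPX. The part of these markers in the caveola differences was not tested.

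EA was compared with CPX last, a comparison that shares its libraries with both others. The log2 differences ran from -0.62 for Cav2 (SE 0.71) and -0.56 for Cav1 (SE 0.74) over 0.01 for Ehd2 and 0.09 for Cavin2 to 0.46 for Cavin1 (SE 0.65). They were positive in 3 genes and negative in 2, beside 39% and 61% of all listed genes, with a median of 0.01 beside -0.09. The adipocyte markers were positive in 8 of 18 and the endothelial markers in 13 of 16. The B cell genes were positive in 3 of 7 and the macrophage genes in 7 of 7, all with overlapping ranges. The B cell genes summed to 551.3 to 1687 CPM in EA and to 10.4, 3177 and 24.9 CPM in CPX 4, 6 and 8. The part of these markers was not tested. All 5 ranges of the caveola genes overlapped, beside 5.08% of all listed genes with EA wholly below CPX and 2.1% wholly above. By edgeR's test 0 of 5 passed (adjusted p of at least 0.997, beside 0% of all genes), and 0 of 5 had an unadjusted p under 0.05, beside 2.96% of all genes. DESeq2 called 0 of the 5, beside 0.127% of the genes with an adjusted p, and limma voom 0 of the 5. Without CPX 6 all 5 differences were negative, from -1.13 for Cav2 to -0.02 for Cavin1, and Cav1 (-1.07, edgeR unadjusted p = 0.0456) and Cav2 (edgeR unadjusted p = 0.0273) were below 0.05 before adjustment, beside 12% of all genes lower in EA at that level. Their edgeR adjusted p were 0.205 and 0.173. Without EA 8 the differences were -0.22 for Cav1, -0.33 for Cav2, 0.76 for Cavin1, 0.45 for Cavin2 and 0.34 for Ehd2. Without CPX 4, where both caveolins were highest of all CPX libraries on the TMM scale, Cav1 was at -0.06 and Cav2 at -0.0039.

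**Figure D2:**
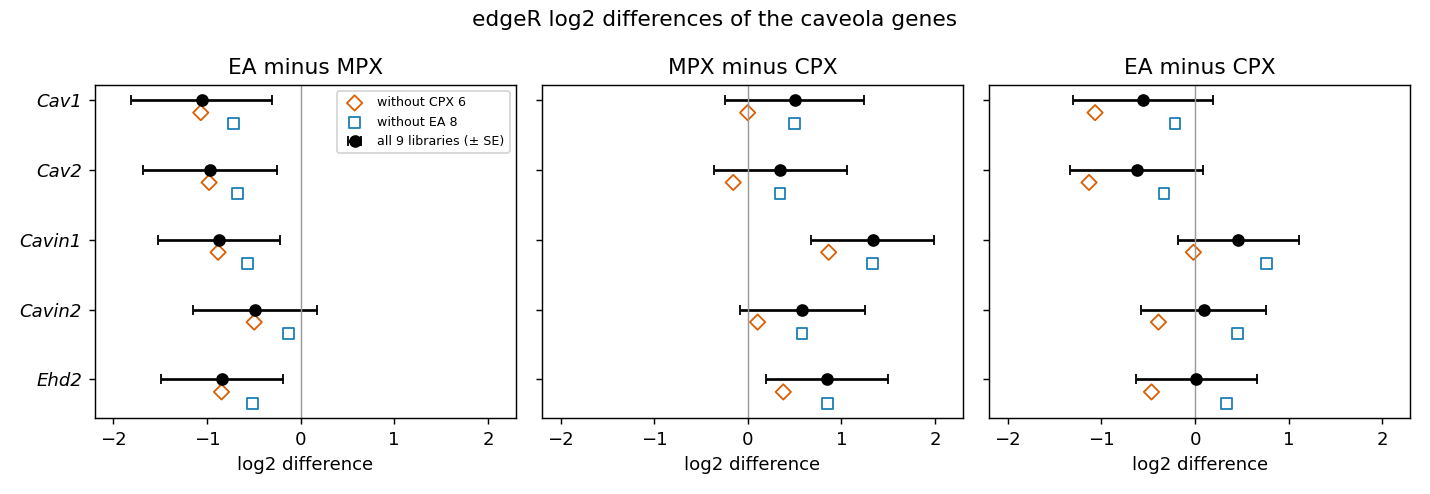
Log2 differences of the 5 genes in each of the 3 comparisons. Black points with bars give the edgeR difference ± SE from all 9 libraries, open diamonds the value without CPX 6 and open squares the value without EA 8; in EA minus MPX all 5 points are negative under the 3 fits shown, while in the other panels leaving out CPX 6 shifts every point to the left.

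In CPX and EA all 5 genes were lowest in the same library, CPX 6 or EA 8. In MPX the spread differed by gene, with an SD of 5.04% of the mean for Ehd2 and 26.6% for Cav2. In CPX 6 the levels were 5.96-fold (Ehd2) to 8.28-fold (Cav1) below the mean of CPX 4 and CPX 8, with Cavin1 at 5.97-fold, Cavin2 at 6.21-fold and Cav2 at 8.05-fold. The median over the 18 adipocyte markers was 8.02-fold, over the 8 fibroblast genes 3.07-fold and over the 16 endothelial markers 1.75-fold. Set against the adipocyte mean, all 5 genes in CPX 6 lay within -0.20 to 0.14 on the centred log2 scale. Set against the endothelial mean they lay at -1.56 to -1.22.

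EA 8 was lower than the mean of EA 5 and EA 7 by 2.21-fold (Cav2), 2.32-fold (Cavin1), 2.51-fold (Ehd2), 2.72-fold (Cav1) and 2.91-fold (Cavin2). The adipocyte markers were lower there by a median of 1.57-fold, with 2.22-fold as the largest of the 18, and the endothelial markers by a median of 1.24-fold, with 2.3-fold as the largest of the 16. Set against the adipocyte mean the 5 genes stood at -1.01 to -0.47 in EA 8, whereas in CPX 6 they had stood near it.

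CPX 4, where the adipocyte markers stood highest (0.99 on the centred log2 scale), separated the members. Cav2 (1.08) and Cav1 (0.91) were as high as the adipocyte markers, Cavin2 stood at 0.49, Ehd2 at 0.19 and Cavin1 at 0.03.

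**Figure D3:**
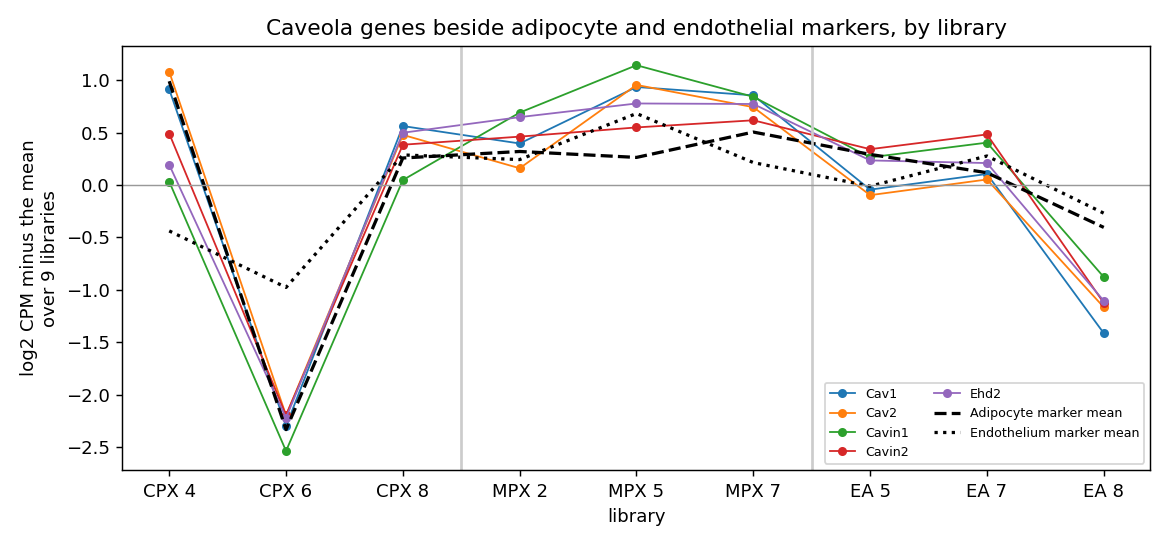
Log2 CPM of each gene minus its mean over the 9 libraries, with the mean of 18 adipocyte markers (dashed) and of 16 endothelial markers (dotted) on the same scale, by library. The 5 genes drop with the adipocyte line in CPX 6 and lie below both lines in EA 8, and in CPX 4 the caveolins stay with the adipocyte line while Cavin1 and Ehd2 do not.

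Ratios between members within a library do not depend on the scaling between libraries. Per length, Cav2 was between 0.254 (MPX 2) and 0.355 (EA 8) of Cav1 in all 9 libraries, a narrow range given that Cav1 itself ran from 403.4 to 3801 CPM. The groups overlapped, with means of 0.313 ± 0.028 in CPX, 0.278 ± 0.025 in MPX and 0.31 ± 0.038 in EA (SD, n = 3 each).

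The ratio of the coat proteins was less even. Cavin2 over Cavin1 was 0.72, 0.663 and 0.661 in CPX 4, 6 and 8, 0.447, 0.347 and 0.448 in MPX 2, 5 and 7, and 0.553, 0.553 and 0.441 in EA 5, 7 and 8. CPX lay above both other groups with no overlap, and the 3 CPX libraries were close together in this ratio although CPX 6 was several-fold below the others in level. EA and MPX overlapped, because EA 8 fell within MPX.

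Coat over caveolin, the mean of Cavin1 and Cavin2 over the mean of Cav1 and Cav2 on the log scale, was 0.548, 0.841 and 0.739 in CPX 4, 6 and 8. It was 1.12, 0.852 and 0.869 in MPX 2, 5 and 7 and 1.18, 1.17 and 1.11 in EA 5, 7 and 8. Both groups lay above CPX with no overlap, MPX only narrowly (0.852 in MPX 5, 0.841 in CPX 6), and EA 8 and MPX 2 were alike. Ehd2 over the mean caveolin averaged 0.552 ± 0.16 in CPX, 0.678 ± 0.135 in MPX and 0.743 ± 0.046 in EA (SD, n = 3 each), and EA did not overlap CPX. With 3 libraries against 3 an exact two-sided permutation test cannot give a p below 0.1, so these ratios are given as a description. How often ratios of other genes separate the groups was not counted.

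**Figure D4:**
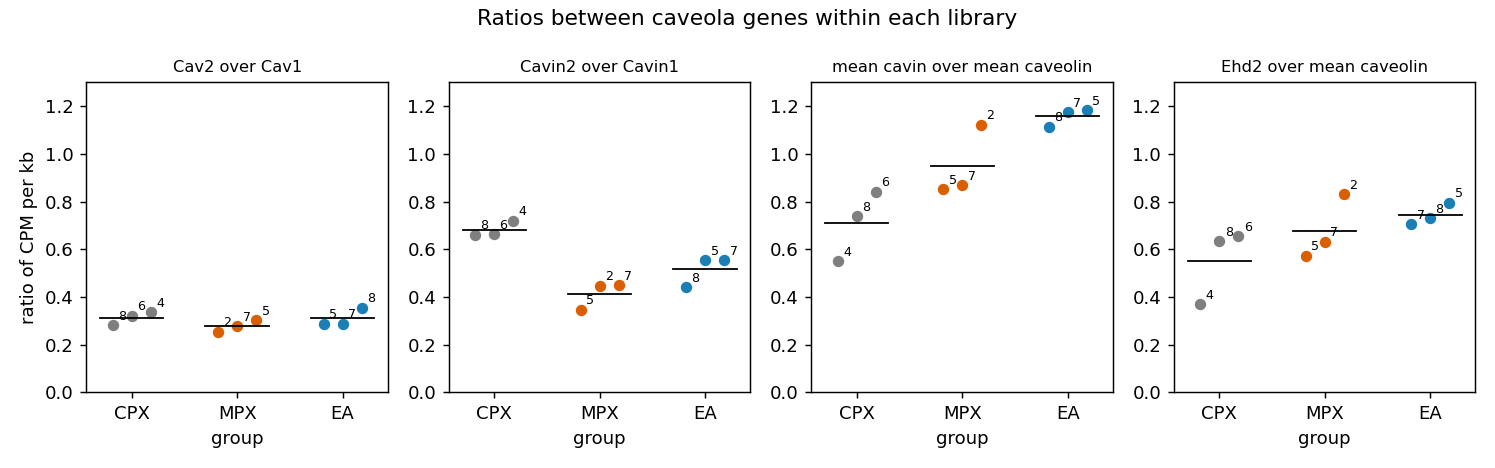
Ratios between members within each library, from CPM per kb, by group (3 libraries each, numbered by library; bars are group means). Cavin2 over Cavin1 is higher in CPX (0.661 to 0.72) than in MPX and EA, while Cav2 over Cav1 stays between 0.254 and 0.355 in all libraries.

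Likeness of profile was measured as the root mean square difference of the centred log2 CPM over the 9 libraries, in log2 units, with smaller values for more alike profiles. Cav1 and Cav2 were each other's nearest gene among all others listed (0.14). Cavin2 and Ehd2 were the next closest pair (0.18), with Ehd2 in place 6 of the genes nearest to Cavin2. Cavin1 was closer to Ehd2 (0.25) than to Cavin2 (0.33), Cav1 (0.43) or Cav2 (0.48).

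Outside the set, the gene nearest to Ehd2 was Aoc3, a surface amine oxidase of adipocytes, at 0.06, closer than any member. Aoc3 averaged 1319 ± 617.2 CPM in EA, 2292 ± 134.9 CPM in MPX and 1358 ± 953.5 CPM in CPX (SD, n = 3 each). Aox1, an aldehyde oxidase, was also among the genes nearest to Ehd2 (0.18). Aox1 (0.16) and Mgll, the monoglyceride lipase of lipolysis (0.18), were among the genes nearest to Cavin1. Cav1 was nearest to Glb1l2 (0.19), Acvr1c, an activin-type receptor of fat cells (0.22), and Aldh1a1, a retinaldehyde dehydrogenase (0.22). Cav2 was nearest to Serpina3c (0.17), Phlda3 (0.17) and Glb1l2 (0.20), and Cavin2 to Slc24a3, an ion exchanger (0.13), Klhdc7a (0.16) and Fgfrl1 (0.16). For the mean of the 5 genes the nearest were Fgfrl1, a receptor of the fibroblast growth factor receptor family (0.12), Aoc3 (0.14), Fads3 (0.15), Slc24a3 (0.15), Acvr1c (0.18), Prkar2b, a regulatory subunit of protein kinase A (0.19), Aldh1a1 (0.20) and Ndrg2 (0.20).

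The rest of the caveola machinery did not share one pattern. Of 13 further caveola genes chosen, 7 were listed: Cavin3, Ehd1, Ehd4, Pacsin2, Dnm2, Flna and Abl1. In EA minus MPX 5 of the 7 had positive and 2 negative differences (median 0.08), and 0 passed edgeR's test. Cavin3, the coat subunit that binds Cavin1, was at 363.5, 427.8 and 509.5 CPM in MPX 2, 5 and 7, at 166.6, 188.7 and 89.1 CPM in EA 5, 7 and 8, and at 298.1, 37.2 and 300 CPM in CPX 4, 6 and 8. MPX lay above both other groups, with a log2 difference of -1.55 for EA minus MPX (SE 0.68, edgeR unadjusted p = 0.0498, adjusted p = 0.775), where 5.1% of all listed genes had an unadjusted p under 0.05. The other 6 differences in EA minus MPX ran from -0.05 (Pacsin2, a membrane-bending protein) to 0.25 (Abl1, a tyrosine kinase). Cavin3 lay wholly lower in EA, as did 19% of all listed genes, whereas Dnm2 (0.19) and Abl1 lay wholly higher. The share of all genes wholly higher is not given here. In MPX minus CPX 5 of the 7 were positive (median 0.14) and in EA minus CPX 6 of 7 (median 0.18), with 0 past edgeR's test in either and 0 at an unadjusted p under 0.05.

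Flotillins scaffold membrane rafts outside caveolae. The flotillins Flot1 and Flot2 and a further raft scaffold gene, Stom, were 3 of 3 listed. All had negative differences in EA minus MPX (median -0.57) and did not overlap, where 48.6% of all listed genes were negative and 19% lay wholly lower in EA. Flot1 was at 146.6, 208.1 and 195.2 CPM in MPX 2, 5 and 7 and at 121.8, 145.7 and 88.2 CPM in EA 5, 7 and 8, or -0.63 on the log2 scale (SE 0.31; edgeR, adjusted p = 0.775). In MPX minus CPX Flot1 stood at 0.74 (SE 0.31, edgeR unadjusted p = 0.0419, adjusted p = 0.374), where 13.2% of all listed genes had an unadjusted p under 0.05. It was at 141.8, 71.1 and 116.3 CPM in CPX 4, 6 and 8, and a difference without CPX 6 is not given. In EA minus CPX the 3 genes lay between -0.19 and 0.11, and 0 of 3 passed edgeR's test in any comparison.

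Of 10 proteins reported to reside in or pass through caveolae, 9 were listed. Their differences in EA minus MPX were split, 5 positive and 4 negative (median 0.02). Cd36, the fatty acid translocase, was at -0.65 (SE 0.66) and Tgfbr2, a receptor of transforming growth factor beta, at 0.94 (SE 0.45). Cd36 lay wholly lower in EA, as did 19% of all listed genes. Tgfbr2 lay wholly higher, for which the share of all genes is not given here. Insr, the insulin receptor, was at 0.02 (SE 0.31). Nos3, the endothelial nitric oxide synthase that binds caveolin 1, had its largest difference in MPX minus CPX (0.80, SE 0.44). It was at 67.1, 19.3 and 65.7 CPM in CPX 4, 6 and 8 and at 71.9, 109 and 83.8 CPM in MPX 2, 5 and 7. A difference without CPX 6 is not given. In MPX minus CPX 5 of 9 were positive (median 0.01), and in EA minus CPX 6 of 9 (median 0.11). In the 3 comparisons 0 of the 9 passed edgeR's test or had an unadjusted p under 0.05.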

How the data were processed

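Total RNA of 9 adipose tissue libraries was sequenced from TruSeq libraries, per the labels' protocols. The submitters' processing notes name HISAT2 2.0.5 and mm10. Which program counted reads, on which annotation and with or without strand, is not given in the sources used here, and so reads of overlapping or antisense genes cannot be told apart. Per the file headers, the authors deposited a raw count of each gene in each library, with the gene's length. As used here, the table ends inside its last row and holds 3958 genes, in falling order of total (3653827 to 8471 counts); genes below that level were not analysed here.

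Counts were fitted with edgeR 4.0.16 (R 4.3.3; TMM, filterByExpr, robust quasi-likelihood) on all 9 libraries with a mean per group, with Benjamini-Hochberg adjustment over all genes within each of 3 comparisons and a threshold of 0.05. The SE was taken as the size of the log2 difference over the square root of F. The filter removed no gene. Log2 CPM used a prior count of 2. The members, gene lists and rules were chosen with earlier results of these data known. By rule, the text names the 5 members, listed genes with the smallest p (up to 3 of a list in a comparison) and the genes nearest in profile (1 of these is not reported here); others named from the lists were chosen after their values were seen. Alternatives were other scalings and filters, DESeq2 1.42.0, limma 3.58.1 (voom), a fit without the robust option, a fit of only the groups compared, each library left out, the library number as a block and, chosen after seeing the data, CPX 6 and EA 8 left out together. No replicate pair held near-identical counts (chi-square per degree of freedom of at least 71.5).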

Additional observations from a re-analysis of the deposited data

How the results depend on the processing

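Over 20 alternatives, 0 of the 5 genes passed an adjusted p of 0.05 in any comparison (smallest 0.126 in EA minus MPX, 0.193 in MPX minus CPX and 0.0919 in EA minus CPX). In EA minus MPX all 5 genes were negative under all 20, but many alternatives could not move a difference far: no gene of the 5 moved by more than 0.05 (log2) under 10 of the 20 in EA minus MPX and under 9 each in MPX minus CPX and EA minus CPX. Among these were both filters, which left all genes in place, and the fit without the robust option. Column sums without scaling moved the median of all genes from 0.01 to 0.11 in EA minus MPX, from -0.11 to 0.0018 in MPX minus CPX and from -0.09 to 0.10 in EA minus CPX (log2), and no member changed direction with it.

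The number of all genes called was 0 in each comparison. In EA minus MPX it became 84 with the 2 groups alone (62 higher, 22 lower), 49 by DESeq2 (21 higher, 28 lower) and 6 with the replicate block (6 higher, 0 lower), and 0 to 23 with a library left out (23 without CPX 6). In MPX minus CPX it was 201 by DESeq2 (69 higher, 132 lower) and 0 to 168 with a library left out (168 without CPX 8), and in EA minus CPX 5 by DESeq2 and 0 to 12 (12 without CPX 6).

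With a library left out, Cav1 ran from -0.0020 to 1.03 and Cav2 from -0.16 to 1.00 in MPX minus CPX. In EA minus CPX Cav1 ran from -1.07 to -0.06, Cav2 from -1.13 to -0.0039, Cavin1 from -0.018 to 0.76, Cavin2 from -0.39 to 0.45 and Ehd2 from -0.47 to 0.45. With CPX 6 and EA 8 left out, MPX minus CPX was -0.00099 for Cav1 and -0.15 for Cav2, and EA minus CPX was -0.042 for Cavin2 and -0.15 for Ehd2. The cause was not tested.

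Library numbers 5 and 7 occur in MPX and EA, and 8 in CPX and EA, but no label says that they pair libraries, and same-numbered deviations from the group means correlated at 0.02, 0.13 and -0.51 across genes. The replicate block left 1 residual degree of freedom and compares MPX with CPX only through EA, and EA with CPX only through EA 8, the low EA library, and CPX 8. Under it MPX minus CPX turned to -1.11 (Cav1), -0.77 (Cav2), -0.27 (Cavin1), -1.34 (Cavin2) and -1.05 (Ehd2; also the median of the 5). EA minus CPX was -1.98 (Cav1) and -1.64 (Cav2) and turned to -0.93 (Cavin1), -1.51 (Cavin2) and -1.60 (Ehd2; also the median); all 5 had an unadjusted edgeR p under 0.05 (0.00358 to 0.0482) and an adjusted p of at least 0.0919. In EA minus MPX the block gave -0.86 (Cav1), -0.87 (Cav2), -0.66 (Cavin1), -0.17 (Cavin2) and -0.55 (Ehd2). The counts of the 5 genes are high, so depth limits none of these values; the spread between 3 libraries does.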

Other observations

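The EHD family members listed in these libraries differed in how they followed the low libraries. Ehd2 had 222.6 CPM in CPX 6 and 482.7 CPM in EA 8, its lowest values of 9. Ehd1, an ATPase of endosomal recycling, was at 193.8 CPM in CPX 6 and 248.5 CPM in EA 8, the latter its highest value, and it ran only from 183 to 248.5 CPM over all 9 libraries. Ehd4, another endosomal member, was at 150.4 CPM in CPX 6 and 235.3 CPM in EA 8, also its highest value, and its lowest was 84.8 CPM in CPX 4. Pacsin2 ran from 90.2 CPM in CPX 4 to 136.5 CPM in MPX 5. Per length, Ehd2 stood at 347.8 CPM per kb in MPX 5 against 63.7 CPM per kb for Ehd1, and at 43.5 CPM per kb in CPX 6 against 52.3 CPM per kb for Ehd1. These genes were picked out after their values were seen, and the differences between family members were not tested.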
